A study of Mus musculus with 12 samples.

Results

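The Wnt pathway genes described here are the 43 genes whose probe set carries a single symbol of a Wnt ligand, a receptor, a secreted modulator or a signalling component, as matched by symbol in the platform annotation. They are 43 of 9539 genes with 1 symbol in a deposited table of 10360 probe sets, and each is read by 1 probe set. The rule uses symbols and no measured value, although it was set with earlier results of these data known. Every probe set of the table varies by at least 0.51 on the log2 scale between arrays, so genes with a flat profile were not analysed here. Ctnnb1, which encodes β-catenin, and the transcription factor genes Tcf7 and Tcf7l1 are not among the genes of the table. One symbol match, Dkkl1, encodes a Dickkopf-like protein of the acrosome and not an established Wnt antagonist.

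Expression was measured on 12 Affymetrix arrays of mouse RNA, 3 in each of 4 groups. The first group was fibroblasts at passage 3. The second, called day-1 cells here, was passage 3 fibroblasts taken from mice that had been generated with iPS cells induced by Oct4 (encoded by Pou5f1) and Tet1, a dioxygenase acting on methylated cytosine. They had spent 1 day in ES medium plus doxycycline, which turns on transgenes under rtTA control. The third was a single iPS line obtained with Oct4 and Tet1, at passage 10, and the fourth a single ES line, R1, at passage 20. The strain label was OG2-GFP/Rosa26-M2rtTA for day-1 cells, iPS cells and the first fibroblast array, OG2-GFP/Rosa26-M3rtTA and OG2-GFP/Rosa26-M4rtTA for fibroblast arrays 2 and 3, and 129 for ES cells. Both pluripotent lines grew on feeder fibroblasts treated with mitomycin C, and a plating step to remove feeders is stated for ES cells. The labels do not say whether the 3 arrays of a group had separate cultures behind them. The p-values thus reflect the spread among these samples alone, which may be technical.

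All 12 pluripotency markers were called higher in the iPS and ES lines than in fibroblasts, and Pou5f1 had a mean log2 level of 5.04 ± 0.18 (SD, n = 3) on fibroblast arrays, 11.79 ± 0.06 at day 1, 12.01 ± 0.04 in the iPS and 12.36 ± 0.00 in the ES line. For the other induced factor, Tet1, the means were 6.68 ± 0.17, 7.46 ± 0.02, 10.25 ± 0.08 and 11.36 ± 0.10 in the same order. Its day-1 difference of 0.79 ± 0.09 from fibroblasts (limma adjusted p = 8.4e-06) was under 2-fold and not called, and whether its probe set reads the introduced Tet1 was not tested. The median of an array was 8.25 to 8.29 outside the pluripotent lines and 7.89 to 8.06 in them, and the median difference of all genes was -0.35 for iPS cells and also -0.35 for ES cells against fibroblasts. Putting every array on a common median changed the first of these to -0.10, and quantile normalization to -0.18. With 3 arrays a group, their number limits precision. The table gives no detection call, so a low value cannot be told from background.

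Wnt proteins are secreted, lipid-modified ligands that bind Frizzled receptors. With the co-receptors Lrp5 or Lrp6 they act through Dishevelled to stop the complex of Axin and Apc from degrading β-catenin, which then works with factors of the Lef and Tcf family in the nucleus. Other Wnt proteins, Wnt5a among them, signal through Ror receptors and the planar polarity proteins without β-catenin. In mouse ES cells Wnt signalling is known for supporting self-renewal, and in fibroblasts for its part in tissue patterning and matrix production.

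A gene was called where the adjusted p of limma, a linear model fitted over all genes, was under 0.05 and the log2 difference was at least 1, which is 2-fold. Genes that passed this rule are said to have risen or fallen. Against fibroblasts, 20 of the 43 members were called in iPS cells, 6 higher and 14 lower, or 46.5% where 51.3% of all genes were called (21.8% higher and 29.6% lower). In ES cells 19 were called, 4 higher and 15 lower, or 44.2% against 55.6% of all genes (23.4% higher and 32.1% lower). In day-1 cells 1 was called, as higher, or 2.33% against 7.79% (3.46% higher and 4.33% lower). Between iPS and day-1 cells 16 were called, 3 higher and 13 lower in iPS cells, or 37.2% against 44.2% (17.6% higher and 26.6% lower). In these 4 comparisons the share of members called was below the share of all genes, so what follows describes which members moved and not that the pathway moved more than the rest. The median difference of the members against fibroblasts was -0.48 in iPS and -0.49 in ES cells.

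By direction, 14 members were lower in both pluripotent lines, Wnt5a, Fzd1, Fzd2, Rspo2, Rspo3, Lgr5, Sfrp1, Sfrp2, Dkk2, Dkk3, Nkd2, Dvl3, Prickle2 and Tcf7l2. Fzd5, Axin2 and Lef1 were the 3 members higher in both. Fzd6, Fzd10 and Dvl2 passed as higher in iPS cells, Sfrp4 as higher and Ror2 as lower in ES cells, and no member was called in opposite directions in the 2 lines. Both comparisons use the same 3 fibroblast arrays. RNA of whole cultures was measured, in which fewer cells of a type and less RNA per cell cannot be told apart. The balance depends on scaling. In ES cells it was 4 higher and 15 lower as deposited, 10 and 14 with arrays on a common median and 9 and 14 after quantile normalization, and in the comparison of iPS with day-1 cells it was 3 and 13, 5 and 11, and 5 and 12.

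**Figure D1:**
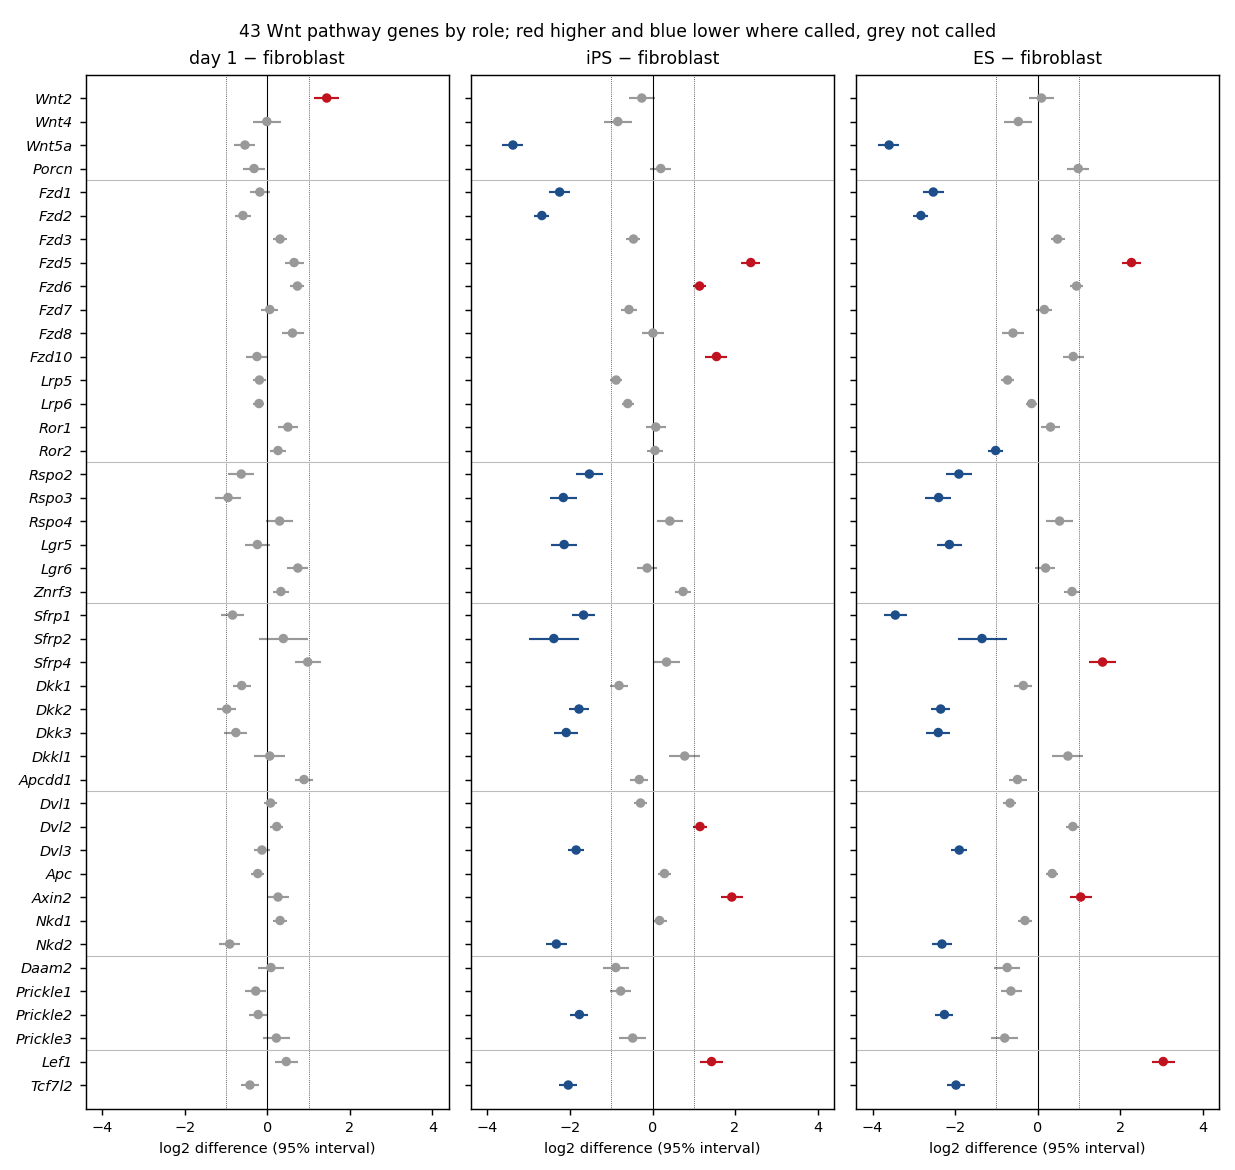
Log2 differences of the 43 members from fibroblasts in day-1, iPS and ES cells (horizontal axes), with 95% intervals from limma and members grouped by role (vertical axis); red points were called higher, blue lower and grey not called, and dotted lines mark 2-fold. Wnt2 is the 1 coloured point at day 1, and the 14 members lower in both pluripotent lines are spread over all roles.

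Promoter sequence is shown for members that moved apart within a family, the receptors Fzd5 and Fzd10 (higher in iPS cells) and Fzd1 (lower) and the nuclear factors Lef1 (higher) and Tcf7l2 (lower), together with the feedback gene Axin2. Of the 43 members, 26 had at least 1 start site in the RefSeq promoter table (GRCm38.p6), with 35 windows in all. Each sequence is the 250 bases before the start, 5′ to 3′ on the gene's strand, and capitals mark CpG, the dinucleotide at which mammalian DNA is methylated and the kind of site Tet1 acts on. Methylation was not measured. The positions are chr11:108920099-108920348 (+) for Axin2, chr3:131110047-131110296 (+) for the most upstream of the Lef1 starts, chr1:64737751-64738000 (-) for Fzd5, chr5:128600856-128601105 (+) for Fzd10, chr5:4758217-4758466 (-) for Fzd1 and chr19:55741560-55741809 (+) for the more upstream Tcf7l2 start.
Axin2: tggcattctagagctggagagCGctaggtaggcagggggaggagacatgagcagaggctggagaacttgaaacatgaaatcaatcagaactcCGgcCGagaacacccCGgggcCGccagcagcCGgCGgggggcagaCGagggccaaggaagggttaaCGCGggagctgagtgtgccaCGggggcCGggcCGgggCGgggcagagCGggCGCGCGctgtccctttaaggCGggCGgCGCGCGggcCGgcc
Lef1: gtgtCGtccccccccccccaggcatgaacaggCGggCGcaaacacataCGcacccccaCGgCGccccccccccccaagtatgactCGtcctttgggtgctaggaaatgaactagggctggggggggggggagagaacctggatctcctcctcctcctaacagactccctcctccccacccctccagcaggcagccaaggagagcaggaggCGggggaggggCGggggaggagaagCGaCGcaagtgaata
Fzd5: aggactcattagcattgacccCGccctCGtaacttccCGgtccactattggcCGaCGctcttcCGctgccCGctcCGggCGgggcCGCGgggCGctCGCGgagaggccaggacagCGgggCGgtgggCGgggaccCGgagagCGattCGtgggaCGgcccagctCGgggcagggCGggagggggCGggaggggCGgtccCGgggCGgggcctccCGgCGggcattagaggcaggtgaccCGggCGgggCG
Fzd10: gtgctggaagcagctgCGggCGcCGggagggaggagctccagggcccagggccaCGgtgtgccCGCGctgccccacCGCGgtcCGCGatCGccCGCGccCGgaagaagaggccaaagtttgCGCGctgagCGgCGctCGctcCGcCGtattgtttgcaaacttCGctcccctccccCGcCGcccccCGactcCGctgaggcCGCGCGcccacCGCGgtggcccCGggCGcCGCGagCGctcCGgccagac
Fzd1: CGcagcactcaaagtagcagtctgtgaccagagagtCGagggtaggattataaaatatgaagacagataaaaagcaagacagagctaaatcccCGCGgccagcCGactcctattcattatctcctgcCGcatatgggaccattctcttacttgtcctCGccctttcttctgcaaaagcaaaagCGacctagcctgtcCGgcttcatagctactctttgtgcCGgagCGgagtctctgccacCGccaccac
Tcf7l2: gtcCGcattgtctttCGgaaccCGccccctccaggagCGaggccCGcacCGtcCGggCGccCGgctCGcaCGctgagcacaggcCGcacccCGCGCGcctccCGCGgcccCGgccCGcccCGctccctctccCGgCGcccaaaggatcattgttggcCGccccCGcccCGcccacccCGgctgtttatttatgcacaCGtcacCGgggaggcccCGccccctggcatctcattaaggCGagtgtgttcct

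These windows held 24 CpG for Axin2, 11 for Lef1, 32 for Fzd5, 37 for Fzd10, 12 for Fzd1 and 30 for Tcf7l2. The median over all 32851 windows of the table was 6, and 28 of the 35 member windows lay above it, with a median of 14. A window with at least as many CpG as that of Fzd10 made up 2.2% of all windows, and for Fzd1 33.5%. Members that rose and members that fell both had CpG-rich windows, as Fzd5 and Tcf7l2 show. The count depends on the start taken, since the other Tcf7l2 window held 7 CpG. Windows of Prickle2, which fell, held 4 to 18, and those of Lef1, which rose, 5 to 14. The core letters that Lef and Tcf factors recognise, CTTTGAT on either strand, occurred in 1 member window, of Prickle2, and in 3.21% of all windows. The octamer ATGCAAAT, bound by Oct4, occurred on either strand in 1 member window, of Sfrp2, and in 1.6% of all. None of the 6 windows printed above holds either motif, which says only that these letters are not in these windows.

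Among ligands, Wnt5a fell furthest and Wnt2 was the 1 member called at day 1. Wnt5a, a ligand that signals mainly without β-catenin, stood at 10.35, 10.45 and 10.51 in fibroblasts, 9.77, 9.99 and 9.94 at day 1, 7.18, 6.9 and 7.09 in iPS and 6.89, 7.05 and 6.57 in ES cells. The fibroblast values were the highest, those of day 1 came next without overlap, and the arrays of the 2 pluripotent lines overlapped. Its level was 10.4-fold lower in iPS cells than in fibroblasts (log2 difference -3.38 ± 0.12, SE; adjusted p = 1.3e-11) and 12.2-fold lower in ES cells (-3.60 ± 0.12). On the day-1 arrays its difference of -0.54 ± 0.12 (adjusted p = 0.0016) stayed under 2-fold.

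Wnt2, a ligand best known from lung and vascular development, stood at 6.01, 6.01 and 5.51 in fibroblasts, 7.47, 7.12 and 7.25 at day 1, 5.45, 5.78 and 5.54 in iPS and 5.88, 5.87 and 6.04 in ES cells. The day-1 arrays lay above all 9 others. Wnt2 rose 2.7-fold at day 1 (1.44 ± 0.14; adjusted p = 2.4e-06) and was 3.23-fold lower in iPS than in day-1 cells (-1.69 ± 0.14; adjusted p = 6.7e-08). These are low values, and Wnt2 was among the 13 members left out when the dimmest 25% of genes were not tested. In the day-1 comparison the doxycycline, the medium and the origin of the fibroblasts all differ, and their parts cannot be told apart.

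The other ligand of the table, Wnt4, was not called, with differences of -0.84 in iPS and -0.47 in ES cells against fibroblasts. Porcn, the acyltransferase that adds the lipid without which Wnt proteins are not secreted, differed by 0.98 ± 0.12 in ES cells against fibroblasts (adjusted p = 4.4e-06), just under the minimum, and was called after centring on a common median (1.33) or quantile normalization (1.27). In iPS cells it differed by 0.20. The transporter gene Wls, which carries lipidated Wnt proteins to the cell surface and comes from the list of other pathway genes, had 10.7, 10.83 and 10.83 in fibroblasts, 10.46, 10.32 and 10.44 at day 1, 9.18, 9.31 and 9.23 in iPS and 6.28, 7.47 and 6.38 in ES cells. It fell 16.9-fold in ES cells (-4.08 ± 0.23; adjusted p = 8.6e-10) and 2.92-fold in iPS cells (-1.55 ± 0.23). The second ES array stood above the others, and without it the difference in ES cells was -4.46.

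The Frizzled receptors split by member. Fzd1 and Fzd2, which bind Wnt ligands with broad specificity, were high in fibroblasts and low in both pluripotent lines, while Fzd5 did the reverse. Fzd2 had 10.04, 10.12 and 10.19 in fibroblasts, 9.7, 9.45 and 9.43 at day 1, 7.38, 7.48 and 7.44 in iPS and 7.29, 7.18 and 7.38 in ES cells. Its fall was 6.43-fold in iPS cells (-2.68 ± 0.09; adjusted p = 6.5e-12) and 7.12-fold in ES cells (-2.83 ± 0.09). Fzd1 had 9.74, 10.13 and 10.1 in fibroblasts, 9.86, 9.75 and 9.82 at day 1, 7.79, 7.74 and 7.69 in iPS and 7.7, 7.39 and 7.29 in ES cells. For this gene the fibroblast and day-1 arrays overlapped (-0.18 ± 0.12), and the falls were 4.76-fold and 5.78-fold in iPS and ES cells.

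Fzd5, the promoter of which is printed above, had 7.0, 7.08 and 6.77 in fibroblasts, 7.67, 7.52 and 7.62 at day 1, 9.25, 9.25 and 9.5 in iPS and 9.38, 9.23 and 9.06 in ES cells. It was 5.21-fold higher in iPS cells (2.38 ± 0.11; adjusted p = 1.3e-10) and 4.83-fold higher in ES cells (2.27 ± 0.11), with overlapping arrays of the 2 lines. Day-1 arrays lay above the fibroblast arrays (0.65 ± 0.11; adjusted p = 0.00019), under 2-fold. Fzd10 rose in iPS cells (1.55 ± 0.12), with means of 6.17 ± 0.31 in fibroblasts, 7.72 ± 0.05 in iPS and 7.04 ± 0.07 in ES cells. The difference of 0.86 in ES cells against fibroblasts was not called as deposited and was called after centring on a common median (1.21) or quantile normalization (1.04). Fzd6, a receptor also used in planar polarity, had means of 6.82 ± 0.05 in fibroblasts, 7.55 ± 0.05 at day 1, 7.95 ± 0.11 in iPS and 7.76 ± 0.10 in ES cells. It was 2.2-fold higher in iPS cells (1.14 ± 0.08) and at 0.94 ± 0.08 in ES cells. The ES difference was called after centring on a common median (1.28) or quantile normalization (1.21).

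Of the 12 receptor genes, Fzd3, Fzd7, Fzd8, Lrp5, Lrp6 and Ror1 were called in no comparison. Fzd8 and Ror1, both receptors, differed from fibroblasts by 0.01 and 0.08 in iPS cells and by -0.60 and 0.31 in ES cells. The co-receptor gene Lrp6 had 9.49, 9.58 and 9.55 in fibroblasts, 9.35, 9.34 and 9.31 at day 1, 8.89, 8.93 and 9.0 in iPS and 9.38, 9.45 and 9.32 in ES cells. Its iPS arrays were the lowest of all 12, by -0.60 ± 0.06 from fibroblasts, and the 95% interval of that difference, -0.74 to -0.46, lies within 2-fold. Its partner Lrp5 differed by -0.88 ± 0.07 in iPS and -0.73 ± 0.07 in ES cells. Fzd7, a receptor abundant in early embryos and stem cells, had means of 9.60 ± 0.09 in fibroblasts, 9.03 ± 0.02 in iPS cells and 9.76 ± 0.20 in ES cells. Ror2, a tyrosine kinase receptor for Wnt5a, had 9.17, 9.34 and 9.28 in fibroblasts, 9.55, 9.51 and 9.51 at day 1, 9.52, 9.21 and 9.26 in iPS and 8.35, 8.21 and 8.18 in ES cells. The ES arrays were the lowest, and iPS and fibroblast arrays overlapped, with an interval of their difference from -0.13 to 0.25. Its fall in ES cells (-1.02 ± 0.09) was near the minimum, and the call ended with arrays on a common median (-0.67), after quantile normalization (-0.74), without the fibroblast array numbered 2 (-0.98) and without the ES array numbered 3 (-0.99).

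**Figure D2:**
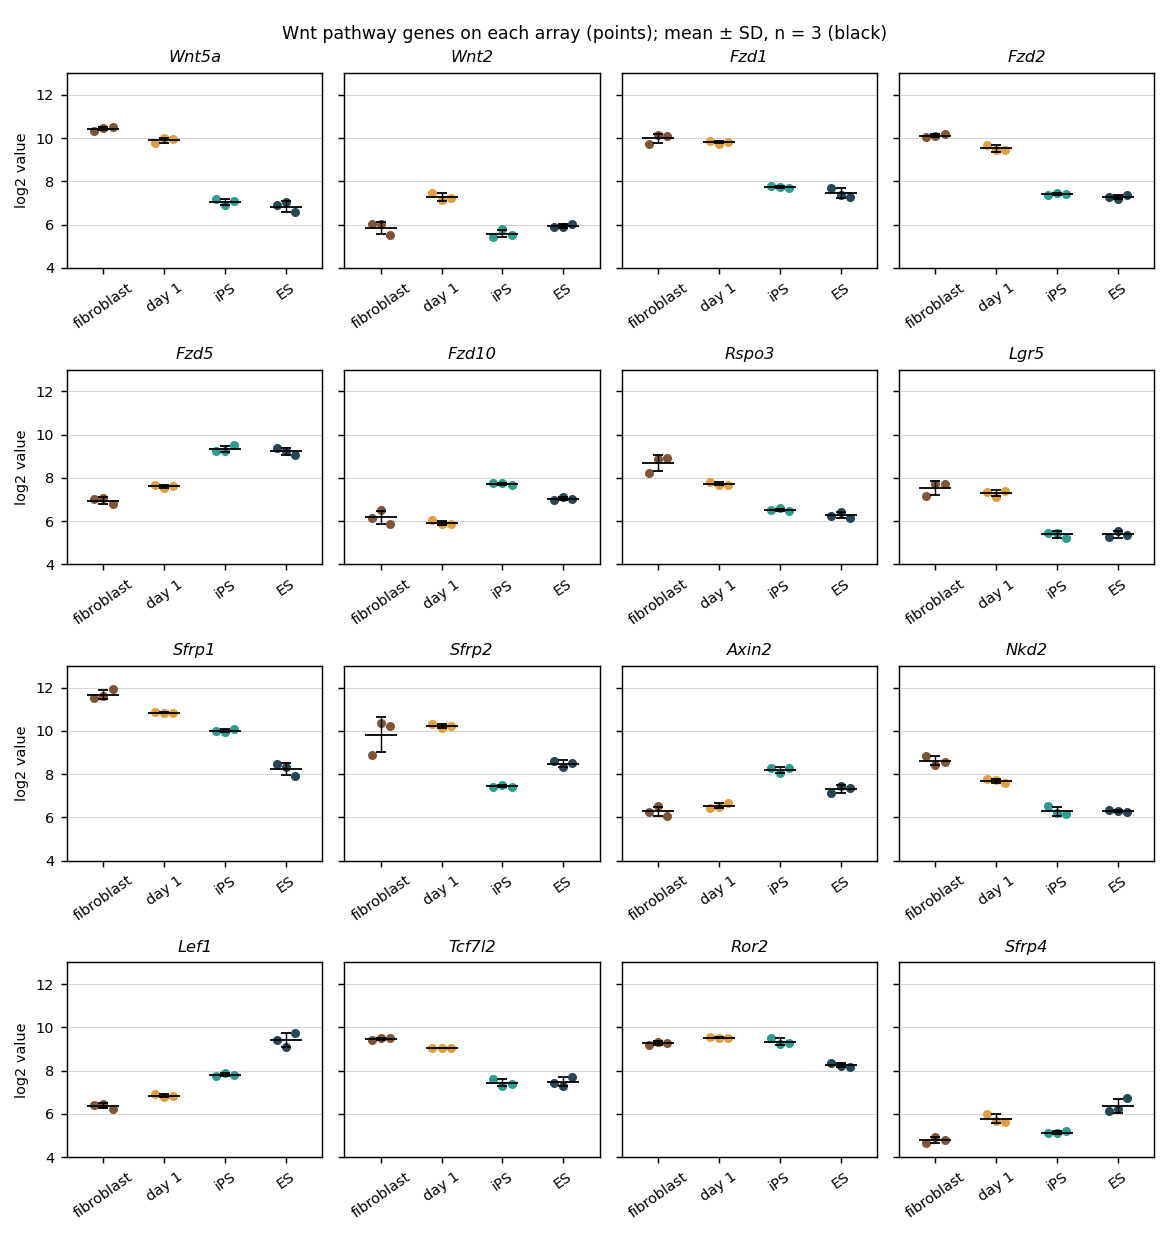
Log2 values (vertical axis, same scale in every panel) of 16 pathway genes on each of the 12 arrays by group (horizontal axis); points are arrays and black bars the mean ± SD of n = 3. Wnt5a, Fzd1, Fzd2 and Tcf7l2 are low in iPS and ES cells, Fzd5 is high in both, Wnt2 is high in day-1 cells, and Sfrp1, Lef1 and Ror2 differ between iPS and ES cells.

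R-spondins are secreted proteins that bind Lgr receptors and hold back Znrf3 and its partner, ubiquitin ligases that remove Frizzled from the membrane. In this branch Rspo2, Rspo3 and Lgr5 fell in both pluripotent lines, and Rspo4, Lgr6 and Znrf3 were called in no comparison. Rspo3 had 8.24, 8.86 and 8.93 in fibroblasts, 7.82, 7.68 and 7.68 at day 1, 6.49, 6.59 and 6.47 in iPS and 6.22, 6.44 and 6.16 in ES cells. It was 4.46-fold lower in iPS cells (-2.16 ± 0.15; adjusted p = 8.3e-09) and 5.29-fold lower in ES cells. Its difference at day 1 was -0.95 ± 0.15, and -1.17, past the minimum, without the first fibroblast array. Lgr5, a receptor known as a stem cell marker of the gut and hair follicle, had 7.16, 7.7 and 7.71 in fibroblasts, 7.36, 7.12 and 7.38 at day 1, 5.47, 5.45 and 5.22 in iPS and 5.25, 5.55 and 5.35 in ES cells. Its fall was 4.42-fold in iPS cells (-2.14 ± 0.14) and 4.41-fold in ES cells, and fibroblast and day-1 arrays overlapped. Rspo2 had means of 7.59 ± 0.21 in fibroblasts, 6.96 ± 0.26 at day 1, 6.06 ± 0.18 in iPS and 5.68 ± 0.18 in ES cells. It fell by 1.53 on the log2 scale in iPS cells and by 1.91 in ES cells. Znrf3, itself a feedback target of the pathway, differed by 0.74 ± 0.09 in iPS and 0.83 ± 0.09 in ES cells against fibroblasts and was called in ES cells under both other scalings (1.17 and 1.13). Rspo4 and Lgr6, another R-spondin and another receptor of the branch, differed by 0.42 and -0.13 in iPS and by 0.53 and 0.19 in ES cells.

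The first fibroblast array was the lowest of its group for 11 of the 14 members that fell in both lines. Over all 43 members this held for 20 (46.5%), against 34.6% of all genes. Its median distance from the mean of the other 2 arrays was -0.20 over those 14 members and 0.01 over all genes. Without it, 20 and 19 members were still called in iPS and ES cells. Among the measured fibroblast markers, all but Thy1, Twist2 and Vcam1 were also lowest on this array within the group. Every measured contractile marker was instead highest on it, as Cnn1 with 11.46 against 10.9 and 10.85. Low values there are thus not particular to the members, and they did not extend to every marker list. The strain labels of the 3 fibroblast arrays run M2rtTA, M3rtTA and M4rtTA, which may be an entry error, so no difference in strain can be read from them.

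Secreted antagonists hold Wnt ligands or the co-receptors. The 8 members grouped here by name also include Dkkl1, the membrane-bound Apcdd1 and Dkk3, whose action is less settled. Of these 8, 4 fell in both pluripotent lines, where 29.6% (iPS) and 32.1% (ES) of all genes fell. Sfrp1, which binds Wnt proteins through a Frizzled-like domain, had 11.5, 11.63 and 11.92 in fibroblasts, 10.89, 10.84 and 10.81 at day 1, 10.01, 9.96 and 10.07 in iPS and 8.45, 8.32 and 7.94 in ES cells. The 4 groups did not overlap. Its fall was 10.9-fold in ES cells (-3.45 ± 0.13; adjusted p = 1.5e-11) and 3.19-fold in iPS cells (-1.67 ± 0.13; adjusted p = 2.5e-08). Sfrp2, of the same family, had 8.89, 10.36 and 10.23 in fibroblasts, 10.31, 10.13 and 10.22 at day 1, 7.4, 7.5 and 7.42 in iPS and 8.62, 8.32 and 8.51 in ES cells. The first fibroblast array stood apart, and the fall was -2.39 ± 0.28 in iPS and -1.35 ± 0.28 in ES cells with it, and -2.86 and -1.81 without it. Sfrp4 had 4.67, 4.94 and 4.78 in fibroblasts, 6.01, 5.67 and 5.64 at day 1, 5.11, 5.1 and 5.2 in iPS and 6.14, 6.22 and 6.75 in ES cells. Its ES arrays were the highest, and it rose in ES cells (1.57 ± 0.15; adjusted p = 2.0e-07) and differed by 0.98 ± 0.15 at day 1. That day-1 difference was called without the second fibroblast array or without day-1 array 2 or 3 (1.03 to 1.05). The values of Sfrp4 are low, and it was not tested when the dimmest 25% of genes were left out.

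The Dickkopf genes Dkk2 and Dkk3 fell in both pluripotent lines. Dkk1 and Dkk2 proteins bind the Lrp co-receptors, while Dkk3 is a divergent member whose action on Wnt signalling is less settled. Dkk2 had 8.46, 8.49 and 8.33 in fibroblasts, 7.44, 7.43 and 7.47 at day 1, 6.77, 6.4 and 6.75 in iPS and 5.88, 6.18 and 6.17 in ES cells. Each group lay below the one before, and the day-1 difference of -0.98 ± 0.11 (adjusted p = 6.8e-06) missed the minimum by little, reaching -1.03 without the third fibroblast array. Dkk3 had 9.12, 9.51 and 9.57 in fibroblasts, 8.74, 8.58 and 8.59 at day 1, 7.22, 7.17 and 7.53 in iPS and 7.18, 6.95 and 6.84 in ES cells. Dkk2 was 3.45-fold lower in iPS and 5.09-fold lower in ES cells than in fibroblasts, and Dkk3 4.26-fold and 5.32-fold. Dkk1, a direct feedback target in many tissues, was called in no comparison (-0.81 in iPS and -0.35 in ES cells), nor was Dkkl1 (0.78 and 0.73). Apcdd1, a membrane-bound inhibitor, had means of 7.98 ± 0.09 in fibroblasts, 8.87 ± 0.10 at day 1, 7.66 ± 0.10 in iPS and 7.49 ± 0.20 in ES cells. It was 2.32-fold lower in iPS than in day-1 cells (-1.21 ± 0.10), and that call ended after centring (-0.96) or quantile normalization (-0.99).

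In the cytoplasm, Axin2, a scaffold of the β-catenin destruction complex that the pathway itself induces, was higher in pluripotent cells and highest in iPS cells. It had 6.24, 6.52 and 6.08 in fibroblasts, 6.45, 6.5 and 6.69 at day 1, 8.31, 8.04 and 8.27 in iPS and 7.13, 7.45 and 7.38 in ES cells. Fibroblast and day-1 arrays overlapped, and iPS arrays lay above ES arrays (0.88 ± 0.12; adjusted p = 5.9e-05), under 2-fold. The rise was 3.79-fold in iPS cells (1.92 ± 0.12; adjusted p = 4.8e-09) and 2.06-fold in ES cells (1.04 ± 0.12), and the ES call ended without the fibroblast array numbered 3 (0.94) or the second ES array (0.97). Apc, the tumour suppressor of the same complex, differed by 0.29 ± 0.07 and 0.35 ± 0.07 and was not called.

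Among Dishevelled genes, whose proteins relay the signal from Frizzled, Dvl2 was 2.22-fold higher in iPS cells (1.15 ± 0.07) and Dvl3 3.6-fold lower (-1.85 ± 0.09; adjusted p = 2.7e-10), while Dvl1 was called in no comparison (-0.29 in iPS and -0.67 in ES cells). The means of Dvl2 were 8.37 ± 0.05 in fibroblasts, 8.60 ± 0.10 at day 1, 9.52 ± 0.09 in iPS and 9.22 ± 0.06 in ES cells. Those of Dvl3 were 10.23 ± 0.08 in fibroblasts, 10.10 ± 0.05 at day 1, 8.39 ± 0.08 in iPS and 8.33 ± 0.18 in ES cells. In ES cells Dvl3 fell by 1.90 on the log2 scale, and Dvl2 differed by 0.85, a value called under both other scalings (1.2 and 1.11). Nkd2, an inhibitor that binds Dishevelled, had 8.84, 8.43 and 8.58 in fibroblasts, 7.77, 7.73 and 7.6 at day 1, 6.53, 6.2 and 6.14 in iPS and 6.33, 6.31 and 6.25 in ES cells. It was 5.01-fold lower in iPS and 4.99-fold lower in ES cells than in fibroblasts, and day-1 arrays lay between without overlap (-0.91 ± 0.11). Its relative Nkd1 was called in no comparison, with differences of 0.17 and -0.31. Of the genes for planar polarity and actin control, Prickle2 was called. It had 8.09, 8.12 and 8.15 in fibroblasts, 8.07, 7.82 and 7.81 at day 1, 6.25, 6.56 and 6.23 in iPS and 5.96, 5.79 and 5.83 in ES cells, falls of 3.42-fold and 4.79-fold. Prickle1, Prickle3 and the formin-like gene Daam2 lay between -0.89 and -0.48 in both lines and were not called.

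The 2 nuclear factors of the table moved in opposite directions. Lef1 had 6.43, 6.46 and 6.24 in fibroblasts, 6.92, 6.76 and 6.84 at day 1, 7.74, 7.87 and 7.81 in iPS and 9.43, 9.09 and 9.74 in ES cells. Every group lay above the one before, with a rise of 8.24-fold in ES cells (3.04 ± 0.13; adjusted p = 6.0e-11) and of 2.69-fold in iPS cells (1.43 ± 0.13; adjusted p = 1.6e-07) against fibroblasts. Tcf7l2 had 9.43, 9.49 and 9.5 in fibroblasts, 9.04, 9.06 and 9.05 at day 1, 7.61, 7.31 and 7.38 in iPS and 7.45, 7.31 and 7.71 in ES cells. It was 4.1-fold lower in iPS cells (-2.04 ± 0.10; adjusted p = 3.6e-10) and 3.95-fold lower in ES cells, whose arrays overlapped with those of iPS cells.

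At day 1 the members as a whole had a median difference of 0.06, against 0.05 for all genes, and 35 of the 43 had a 95% interval within 2-fold. The share of all genes with such an interval was not computed, so this count is not a result about the members. Besides Wnt2, the differences ran from -0.98 (Dkk2) to 0.98 (Sfrp4). The adjusted p was under 0.05 for 57.1% of all genes in this comparison, so a small adjusted p of a member below 2-fold is common there. Neural markers were higher in day-1 cells than in fibroblasts for 3 of the 4 measured of 8 listed, with a summed linear level of 2150 to 2190 against 316 to 405. Of 8 contractile markers 3 were higher (Actg2 1.43, Myh11 1.35 and Des 1.59), with sums of 24300 to 24800 against 18800 to 21800. Of 15 fibroblast markers 3 were lower (Pdgfra -1.16, Dcn -1.42 and Twist2 -1.36). Of 9 macrophage markers 3 were lower (Adgre1 -2.0, Cd14 -1.54 and Lyz2 -1.03) and 1 higher (C1qb 1.48). Beside these marker counts, 3.46% of all genes were called higher and 4.33% lower at day 1. The part of these markers in the day-1 values, Wnt2 included, was not tested.

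Of 66 other genes of the pathway, 43 were measured. In iPS cells 9 of them rose and 14 fell against fibroblasts, or 53.5% called, and in ES cells 11 rose and 13 fell, or 55.8%, near the 51.3% and 55.6% of all genes. Besides Wls, the largest differences were those of Tle4, Gpc6, Tpbg, Notum and Bcl9l. Tle4, a Groucho co-repressor that binds Tcf factors, rose 5.51-fold in iPS and 13.3-fold in ES cells. Notum, an enzyme that removes the lipid from Wnt proteins, rose 3.95-fold and 5.46-fold. The membrane protein gene Tpbg, described as an inhibitor of Wnt signalling, fell 9.62-fold and 8.61-fold. The glypican gene Gpc6 fell 5.98-fold and 10.6-fold, and Bcl9l, a co-activator of β-catenin, 3.97-fold and 4.31-fold. At day 1 Cthrc1, which encodes a secreted protein with a collagen-like repeat, was the 1 gene of this list called (2.02 ± 0.12; adjusted p = 3.5e-08), named after its value was seen.

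The list of frequent Wnt targets, which leaves out the members and shares Notum with the list above, had 26 of 44 genes measured. Of these, 6 rose and 11 fell in iPS cells (65.4% called) and 4 rose and 12 fell in ES cells (61.5%), with median differences of -0.83 and -0.82. Over all genes 51.3% and 55.6% were called, with a median of -0.35 in both. Many of them respond to other signals as well, so the list does not read the pathway alone. Mycn, a Myc family gene, rose 12.5-fold in iPS and 36.1-fold in ES cells, while Fosl1, of the AP-1 family, fell 12.3-fold and 11-fold and the adhesion receptor gene Cd44 fell 3.97-fold and 11.6-fold. The matrix protease genes Mmp2 and Mmp9 and the factor gene Sox9 fell in both lines. At day 1, Fst (1.15), Birc5 (1.07, a call that ended at 0.96 without the third fibroblast array), Id2 (1.23) and Plaur (1.15) rose and Mmp9 fell (-1.31), or 19.2% of the list against 7.79% of all genes. The first 4 were named after their values were seen.

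Genes that the factor Tcf7l1 is described to repress in ES cells, Tcf7l1 itself not being in the table, were all 11 measured. All 11 rose in iPS cells, and 10 rose in ES cells, with Tbx3 at 0.92, where 21.8% and 23.4% of all genes rose. The median difference was 4.99 and 4.52. These include Tdgf1 (7.41 ± 0.08 in iPS cells), Nr0b1, Nanog (6.47 ± 0.10), Tfcp2l1, Esrrb and Lefty2. Of the 11 genes, 4 are also on the list of pluripotency markers, so the 2 lists are not independent. The list was described in ES cells, so a rise from fibroblasts to pluripotent lines cannot be read as an effect of Tcf7l1 or of Wnt signalling. At day 1 limma called 0 of 11, against 7.79% of all genes, with 6 at an unadjusted p under 0.05. All 11 intervals lay within 2-fold, a share not computed for all genes.

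**Figure D3:**
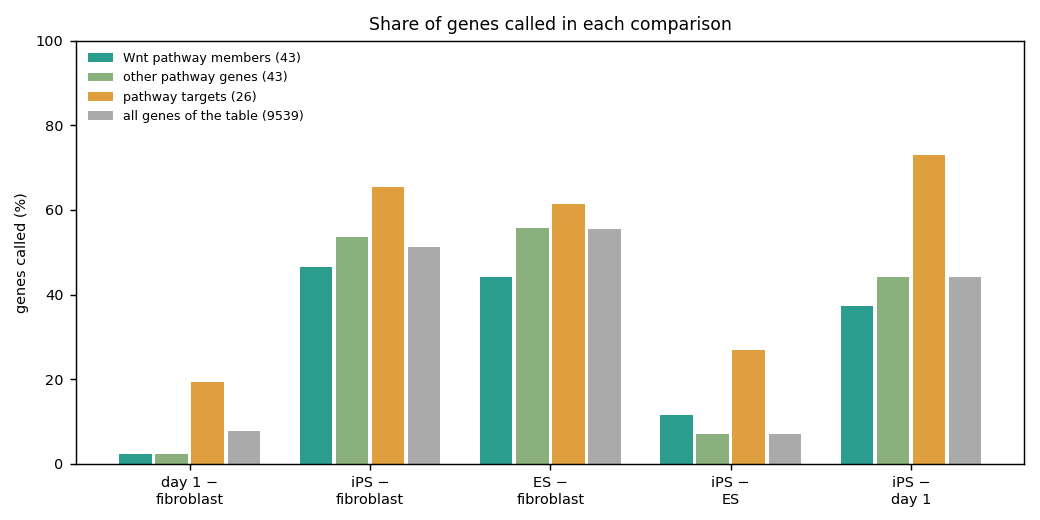
Share of genes called by limma (vertical axis, percent) in each of 5 comparisons (horizontal axis) among the 43 members, 43 other pathway genes, 26 pathway targets and all 9539 genes of the table. The bar of the members is below that of all genes in 4 comparisons and above it for iPS against ES cells (11.6% and 6.90%).

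The last comparison sets the iPS line against the ES line, in which strain, passage, line and the feeder-removal step stated for ES cells differ together and cannot be told apart. Here 5 of 43 members were called, or 11.6% against 6.90% of all genes (4.44% higher and 2.45% lower), with Sfrp1 and Ror2 higher in iPS cells and Lef1, Sfrp4 and Sfrp2 lower. With arrays on a common median the split was 1 higher and 4 lower, and after quantile normalization 2 and 4. For 35 of the 43 members the 95% interval lay within 2-fold. That share was not computed for all genes, so the count cannot be read as particular to the members. Sfrp1 was 3.43-fold higher in iPS cells (1.78 ± 0.13; adjusted p = 2.2e-07), with arrays at 9.96 to 10.07 against 7.94 to 8.45. Ror2 was 2.12-fold higher (1.08 ± 0.09; adjusted p = 5.9e-07), a call that ended at 0.99 with arrays on a common median and also at 0.99 without the first iPS array. Lef1 was 3.06-fold lower (-1.61 ± 0.13; adjusted p = 5.6e-07). Sfrp4 was 2.34-fold lower (-1.23 ± 0.15; adjusted p = 1.6e-05). Sfrp2 was 2.06-fold lower (-1.05 ± 0.28; adjusted p = 0.0059), and that call ended without the first ES array (-0.98).

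Fzd5, Fzd1, Fzd2, Wnt5a, Lgr5, Nkd2, Dvl3 and Tcf7l2, all called in both lines against fibroblasts, were not called between the lines, with differences from -0.06 to 0.28. The same held for Axin2 (0.88), Dkk2 (0.56), Prickle2 (0.49), Rspo2 (0.38), Dkk3 (0.32) and Rspo3 (0.25), some with larger differences. The adjusted p was 0.00062 for Dkk2 and 0.001 for Prickle2. For Lgr5 the interval was -0.31 to 0.31 and for Nkd2 -0.26 to 0.24. Fzd3 stood at 6.30 ± 0.12 in iPS and 7.24 ± 0.03 in ES cells (-0.95 ± 0.07; adjusted p = 4.9e-07), a difference called under both other scalings (-1.04 and -1.13).

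Markers of fibroblasts and contractile cells also differed between the lines. Most of those called were higher in iPS cells, as were Sfrp1 and Ror2, while Lef1, Sfrp4 and Sfrp2 were lower. Over all genes, 4.44% were called higher and 2.45% lower in iPS cells. Of 16 fibroblast markers 15 were measured, and 7 were higher and Dcn lower in iPS than in ES cells. Their summed linear level was 14700 to 15500 on iPS arrays, 3670 to 5340 on ES arrays and 43900 to 51200 on fibroblast arrays. Of 8 contractile markers, 7 were higher in iPS cells, with sums of 9740 to 9990 against 1510 to 2580, and 18800 to 21800 in fibroblasts. The fibroblast markers Thy1 (0.42), Pdgfra (-0.78), Pdgfrb (0.73), Lum (-0.58), Fap (0.46), Twist2 (-0.01) and Vcam1 (0.82) were not called. Wls was 5.78-fold higher in iPS than in ES cells (2.53 ± 0.23; adjusted p = 1.3e-06), and 2.91 on the log2 scale without the second ES array, which had the highest sum of fibroblast and of contractile markers in its group. For Sfrp1 the difference was 1.78 with that array and 1.82 without it. Among the ES arrays, Sfrp1 (8.45) and Ror2 (8.35) were highest on the first. The part of these markers in the Sfrp1, Ror2 and Wls values was not tested.

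**Figure D4:**
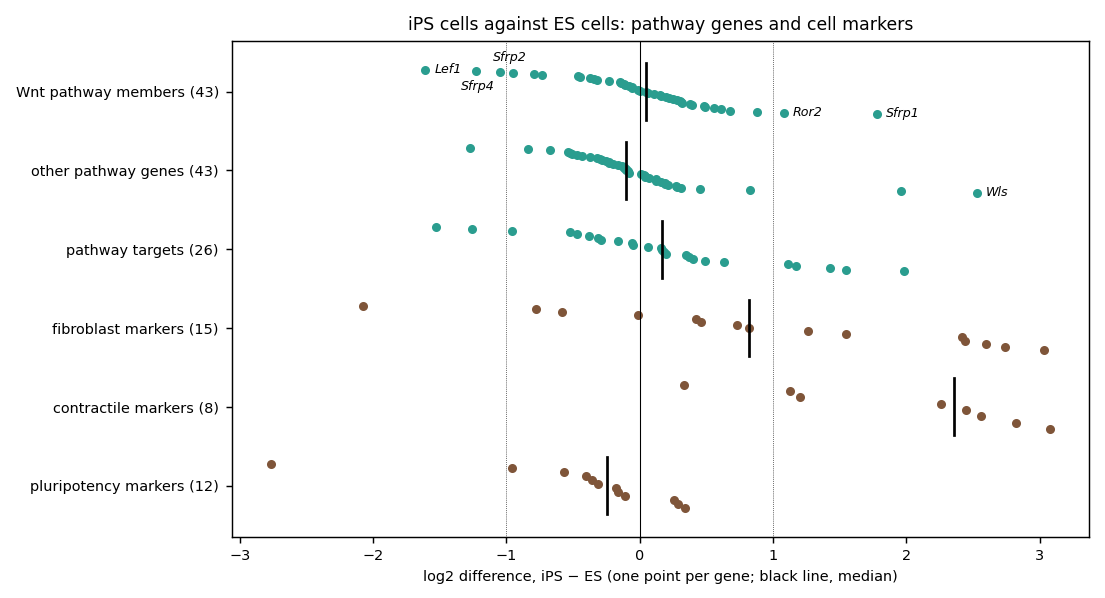
Log2 differences between iPS and ES cells (horizontal axis) with 1 point per gene for the members, other pathway genes, pathway targets and 3 marker lists (rows, number of genes in brackets); black lines are medians and dotted lines 2-fold. Sfrp1, Ror2 and Wls lie on the side where most fibroblast and contractile markers lie, and Lef1, Sfrp4 and Sfrp2 on the other.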

How the data were processed

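The values are log2 levels per probe set from the table the authors deposited for the series. The scale was read from their range, 2.43 to 13.64, and the steps of summarising, normalizing and filtering are not given in the sources used here, although the labels' protocols name total RNA and an Affymetrix whole-transcript labelling kit. Of 10360 probe sets, 9542 had 1 symbol in the platform annotation, 344 several and 474 none. For 3 genes with over 1 probe set the one with the highest mean was used, which left 9539 genes, and all 43 members kept their symbol in the RefSeq gene table.

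Differences were tested with limma 3.58.1 in R 4.3.3, fitting 1 mean for each group to all 12 arrays, with the default eBayes prior and Benjamini-Hochberg adjustment over 9539 genes in each of 5 comparisons. Every adjusted p comes from this fit. The steps were tested on simulated data. Members and lists were chosen with earlier results of these data known. By rule, every member is named, values per array are given for called members with a log2 difference of at least 2 and for core genes, and up to 6 called genes per list. Wnt2, Ror2, Sfrp4 and Wls were given per array beyond the rule. Lists are described by counts, with no set test. Marker lists for macrophages, endothelial and epidermal cells had 9 of 12, 2 of 9 and 1 of 8 genes measured. In iPS and ES cells 6 of the 9 macrophage markers were lower than in fibroblasts (Lyz2 24.1- and 42.1-fold) and Laptm5 was higher (6.11- and 5.80-fold). Over all genes, 29.6% were lower in iPS and 32.1% in ES cells. The endothelial sum was 93.2 to 117 outside and 381 to 685 in the pluripotent lines, and of the epidermal list Perp was measured and was higher in both lines. Alternatives were quantile normalization, a common median, leaving out the dimmest 25% of genes, every probe set, a fit on the compared pair of groups, a robust prior with a trend, a replicate block and omission of single arrays. Python 3.11.15 with pandas 2.3.3 and matplotlib 3.10.9 served for tables and plots.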

Additional observations from a re-analysis of the deposited data

Results flagged for a closer look

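For 5 members the shift from fibroblasts differed between the iPS and the ES line, tested directly as the difference between the lines with limma. Sfrp1 (1.78 on the log2 scale) and Ror2 (1.08) were higher in iPS cells, and Lef1 (-1.61), Sfrp4 (-1.23) and Sfrp2 (-1.05) were lower, in 3 of 3 arrays against 3 of 3 for each gene. Lef1 and Sfrp4 kept their calls under every alternative in which they were tested, as did Sfrp1. Sfrp4 has low values and, like Wnt2, was not tested when the dimmest 25% of genes were left out. Groups of 3 arrays are too small for a test of single outlying arrays.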

How the results depend on the processing

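With the dimmest 25% of genes left out, 50 of the 61 calls of a member in a comparison were tested. The rest belonged to members so removed. Of the 61 calls, 55 held under every alternative in which they were tested, 6 were lost under at least 1, and 0 changed sign. The 6 were Ror2 in ES cells and between the lines, Rspo3 and Apcdd1 between iPS and day-1 cells, Sfrp2 between the lines and Axin2 in ES cells. In 17 other cases an alternative gave a call, mostly one of the 2 other scalings. Of 86 calls of named list genes, 7 were lost under at least 1 alternative.

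The day-1 count of 1 was 0 when the dimmest 25% of genes, Wnt2 among them, were left out and 30 members were tested. Leaving out each array gave 1 to 3 members at day 1, 20 to 21 in iPS and 18 to 20 in ES cells against fibroblasts, 4 to 5 between the lines and 16 to 18 between iPS and day-1 cells. At day 1 the count was 2 without the first fibroblast array, 3 without the second and 2 without the third, and 2 without the second or the third day-1 array. The added members were Rspo3, Sfrp4, Nkd2 and Dkk2, each close to 2-fold with all arrays. The replicate numbers showed no sign of pairing the samples. Of 18 same-numbered pairs, 0 correlated above 0.1 in their deviations (r = -0.208 to 0.0644). For arrays of different groups and numbers r was -0.163 to 0.184. With 3 arrays a group these values cannot exclude a pairing. A replicate block left the counts at 1, 20, 19, 5 and 16. The table gives no detection calls, so differences of the dimmest members are limited by an unknown background.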
